A study of Mus musculus with 2 samples.

Results

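The genes described here encode the proteins of the cytosolic ribosome, together with a few paralogues of them. They were chosen by symbol, as Rpl or Rps followed by a digit, Rpsa or Rplp0 to Rplp2, among probe sets annotated to exactly 1 gene, with Rps6k kinases and pseudogenes left out. This gave 50 of the 18194 genes on the array, read by 106 probe sets, and the brightest probe set by mean log2 signal over both arrays stood for each gene. Of the 50, 43 are core ribosomal proteins (22 of the large and 21 of the small subunit) and 6 are paralogues whose symbols carry an added l (Rpl39l, Rpl3l, Rpl22l1, Rps27l, Rpl7l1 and Rps4l). The last, Rps19bp1, matched by symbol and encodes a nucleolar protein that binds the ribosomal protein S19, so it was kept apart.

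RNA was profiled on 2 Affymetrix arrays, 1 of Bmi1 wild-type and 1 of Bmi1 null mouse embryonic fibroblasts (MEFs), the latter lacking a Polycomb subunit that stimulates ubiquitylation of histone H2A. Per the study's methods the MEFs came from littermates of the 2 genotypes, and both lines were immortalised with a TBX2 construct, a T-box repressor that the controls therefore carry too. The labels give strain C57BL/6, male sex, no treatment and serum-supplemented DMEM for both lines. Neither group was replicated, so every ratio sets 1 array against another without a test, and effects of genotype cannot be told apart from those of line, culture or array.

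Ribosomal proteins assemble on ribosomal RNA in the nucleolus and are made in near equal numbers, since every ribosome needs one copy of almost all of them. Their mRNAs are among the most abundant of a growing cell, and most begin with a C followed by a run of pyrimidines, the TOP motif, through which mTOR controls their translation. Several have paralogues that are used in particular tissues, such as RPL39L in male germ cells and RPL3L in heart and skeletal muscle.

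Short promoter windows show where that start-site motif and other letters, each found in a part of the core promoters, lie. They come from the RefSeq promoter table (assembly GRCm38.p6), run from 50 bases before to 20 bases after the listed start, and are printed 5′ to 3′ on the gene's strand. Capitals mark the ETS core letters CGGAAG or CTTCCG, the letters TATATA upstream, and a C followed by at least 4 pyrimidines that begins within 5 bases of the start. Rpl39l and Rpl39 are shown as the paralogue with a large difference and its parent, Rpl12 and Rps27 as core genes whose own probe sets lay far from 0, Rps18 for holding all 3 motifs and Rps7 as a gene on the study's list of promoters with H2A ubiquitylation.
Rpl39l, chr16:10170178-10170247, plus strand: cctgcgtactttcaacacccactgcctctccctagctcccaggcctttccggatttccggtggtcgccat
Rpl39, chrX:37085203-37085272, minus strand: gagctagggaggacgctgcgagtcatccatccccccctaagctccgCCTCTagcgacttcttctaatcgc
Rpl12, chr2:32961662-32961731, plus strand: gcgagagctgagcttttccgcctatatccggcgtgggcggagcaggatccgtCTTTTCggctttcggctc
Rps27, chr3:90213629-90213698, minus strand: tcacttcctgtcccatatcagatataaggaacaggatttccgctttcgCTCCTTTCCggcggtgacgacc
Rps18, chr17:33955646-33955715, minus strand: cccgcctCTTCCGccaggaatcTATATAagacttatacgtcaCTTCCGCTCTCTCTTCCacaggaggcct
Rps7, chr12:28635934-28636003, minus strand: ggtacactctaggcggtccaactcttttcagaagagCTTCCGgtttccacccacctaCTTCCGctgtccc
The Rpl39l window holds none of the marked letters, and the ETS core letters of its promoter lie further upstream. Rpl39, in contrast, has a pyrimidine run at its start and no ETS core in the 250 bases before it.

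The table listed 38 of the 43 core genes and 5 of the 6 paralogues. The ETS core, searched on both strands in the 250 bases before the start, was found in 24 of 38 core promoters (63.2%) and in 20.0% of the promoters of 14453 genes on the array. The pyrimidine start was found in 18 of 38 (47.4%) against 19.9%. TATAAA or TATATA between 40 and 20 bases before the start was present in 3 core promoters, those of Rpl4, Rps18 and Rps26 (7.89% against 3.27%). CCAAT, searched on both strands, was in 28.9% against 35.7%, and CACGTG was in 7.89% against 7.56%. The median number of CpG dinucleotides per 300 bases was 22.5 in core genes (range 8 to 34) and 17 over all genes. Of the 5 paralogues, 1 had the ETS core (Rpl39l) and 2 had the pyrimidine start (Rpl22l1 and Rps27l). These matches describe letters in the windows, and binding was not measured.

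Signals are MAS5 intensities as the authors scaled them, with a trimmed mean of 500 on both arrays, and ratios are null over wild-type after a floor of 100. The signal of Bmi1 itself was 9933 in wild-type cells against 2146 in the null line, 4.63-fold lower, while its second probe set read 931 and 831. All 12 fibroblast markers were measured, with 3 at least 2-fold higher in null cells (Col3a1, Col5a1 and Col1a1, against 5.73% of all 11766 measured genes) and 1 lower (Thy1, against 5.16%). The Y-linked genes Eif2s3y, Uty and Kdm5d exceeded the floor in wild-type cells only and were lower in the null line by at least 16.8-, 11.9- and 7.12-fold, although the labels give both lines as male. Of markers of other cell types, 3 of 7 blood, 3 of 6 endothelial and 2 of 6 epithelial genes were measured, with 1 past 2-fold in each list (Cd14 and Cdh5 lower, Epcam higher in null cells, against the same shares of all genes). Their part in the results below was not tested.

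Core ribosomal protein mRNAs differed little between wild-type and Bmi1 null MEFs. Of 43 core genes, 42 were above the floor on at least 1 array. None was at least 2-fold higher in null cells, where 5.73% of all 11766 measured genes were, and 1 (Rpl12) was at least 2-fold lower, where 5.16% of all measured genes were. At 1.5-fold, 1 core gene was higher (Rpl39, against 12.5% of all measured genes) and 1 was lower (Rpl12, against 12.0%). The median log2 ratio was -0.038 with an SD over genes of 0.26, and the quartiles were -0.079 and 0.054. Over all measured genes the median was 0.006 and the SD 0.77, with quartiles of -0.29 and 0.30. Below 0 lay 26 of the 42 core genes (61.9%), against 49.4% of all measured genes, but the side of 0 depended on the scaling. After quantile normalisation 22 (52.4%) lay below 0, against 48.8% of all measured genes. After median centring, which scaled the null array to the wild-type median, 20 (47.6%) did, against 45.5%. The centring moved both medians upward, to 0.005 for core genes and 0.047 for all measured genes.

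**Figure D1:**
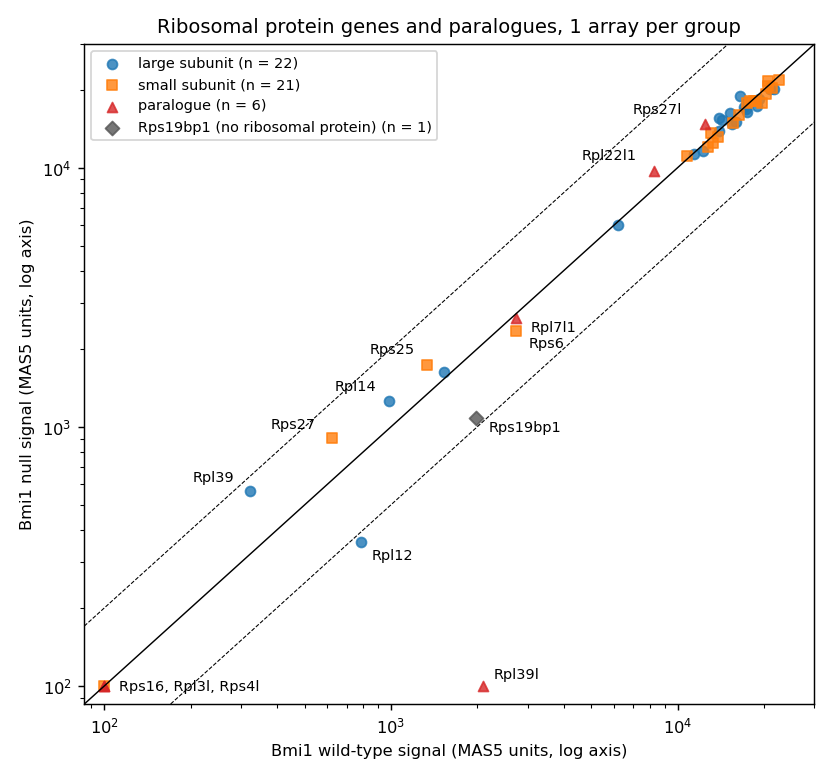
Signal of each gene's chosen probe set in wild-type (x axis) and Bmi1 null cells (y axis), both in MAS5 units on log axes, with signals under 100 drawn at 100. The solid line marks equal signals and the dashed lines 2-fold; core genes crowd the upper end of the equal line, Rpl12 lies just past 2-fold, and Rpl39l lies at the floor in null cells.

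The 2 subunits gave similar values. The median log2 ratio was -0.025 for the 22 measured large-subunit genes (SD 0.32, range -1.13 to 0.82) and -0.042 for the 20 measured small-subunit genes (SD 0.17, range -0.23 to 0.54). The medians differed by 0.017, and the wider range of the large subunit was set by Rpl12 and Rpl39. Rps16, the small-subunit gene that was not measured, read 2.89 and 9.17, below the floor on both arrays.

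The 34 core genes with a mean signal of at least 10000 lay closest together. Their signals ran from 10786 to 22639 in wild-type and from 11097 to 21731 in null cells, and their log2 ratios from -0.15 to 0.19 with a median of -0.047 and an SD of 0.079. The largest difference among them was 1.14-fold (Rpl10a). Another 162 genes were as bright, and their log2 ratios had an SD of 0.32 and a range of -0.81 to 1.31, with 12 at least 1.5-fold higher and 2 lower in null cells. The core genes were the brighter of the sets, with a median wild-type signal of 17190 against 12530, and the brightest probe sets of the arrays read 23377 and 22149. Whether compression of signals near the top of the scale adds to the small spread was not tested.

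The ribosomal stalk recruits translation factors. Rplp0, the scaffold of the stalk, gave 18944 in wild-type cells against 17224 without Bmi1 (log2 ratio -0.14). Rplp2, one of the acidic proteins bound to it, read 19221 and 18423 (-0.061). Rplp1, its partner, had no probe set of its own and is outside the 50 genes; a probe set that it shares with a pseudogene symbol read 16363 and 16176. The 3 probe sets differed by at most 1.10-fold, and the Rplp1 ratio changed from -0.017 to 0.026 with median centring.

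Several large-subunit proteins have known roles outside bulk translation. Rpl11, whose protein binds Mdm2 and so stabilises p53 when ribosome assembly fails, read 11403 and 11323 (-0.010). Rpl5, its partner in that complex, was read by shared probe sets only, which gave 17155 and 16467 (-0.059) for the brightest, 2503 and 3414 (0.45) for the next and 1952 and 2571 (0.40) for the dimmest. The Rpl5 probe sets thus disagreed, with the brightest below 0 and the others above it. Rpl38, which is needed for translation of Hox mRNAs in the mouse embryo, read 20954 and 20086 (-0.061). Rpl10, a protein added late to the large subunit, had 2 shared probe sets, with log2 ratios of -0.082 and -0.047. Rpl13a, also known as a translational silencer after interferon-gamma, read 21718 and 20195 (-0.11). The highest of the bright large-subunit genes were Rpl10a, at 16541 and 18819 (0.19), and Rpl7, at 13990 and 15502 (0.15), and all 3 probe sets of Rpl7 lay between 0.10 and 0.15.

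In the small subunit, Rpsa, a core protein also known as the laminin receptor precursor, gave 16365 in wild-type cells against 15956 without Bmi1 (-0.036). Rps19, the gene most often mutated in Diamond-Blackfan anaemia, read 13277 and 12478 (-0.089). Rps3a1 was the lowest of the bright small-subunit genes, at 19717 and 17758 (-0.15). None of these differed by more than 1.11-fold. Rps29 and Rps20, among the brightest genes, read 22639 and 21731 (-0.059) and 21400 and 20306 (-0.076). Rps18 read 20703 and 21576 (0.060), and Rps4x, encoded on the X chromosome, read 20688 and 20581 (-0.007).

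**Figure D2:**
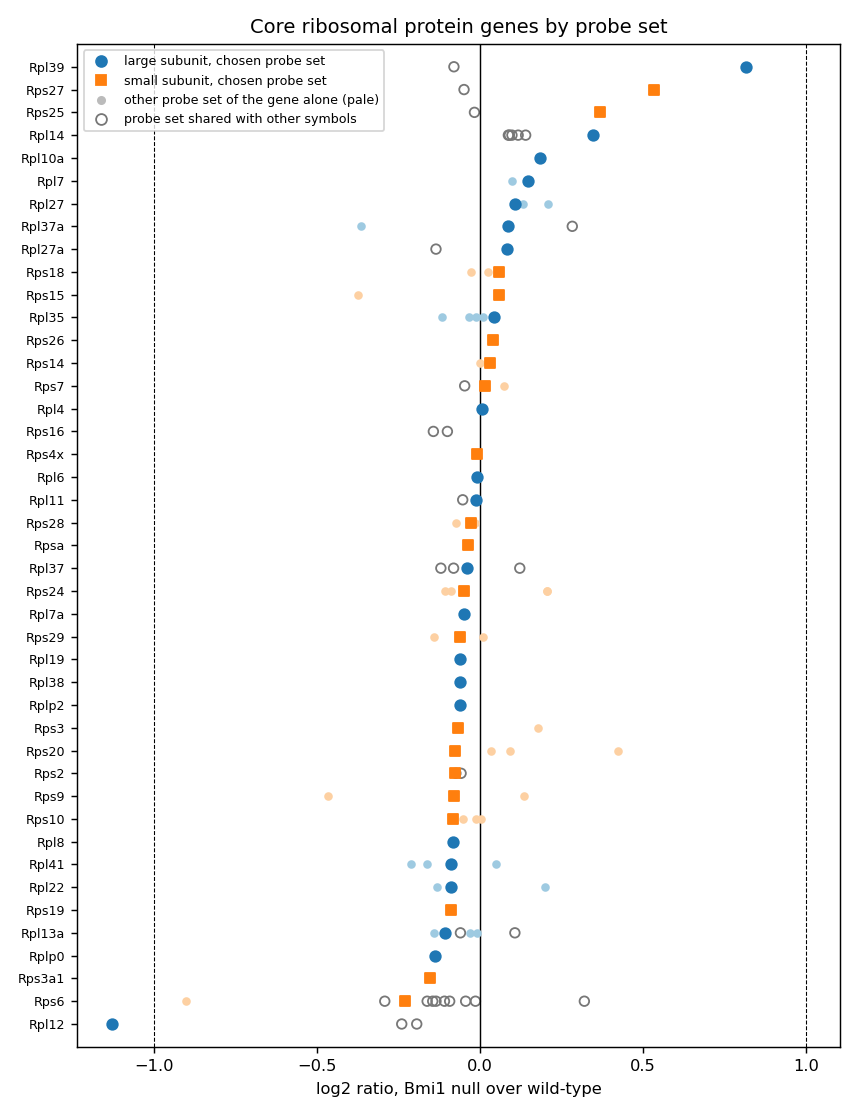
Log2 ratio of null over wild-type (x axis) for every measured probe set of each core gene, ordered by the chosen probe set, with dashed lines at 2-fold. The genes at either end, Rpl12 and Rpl39, have open symbols (probe sets shared with other gene symbols) near 0; the pale Rps6 point at -0.90 is a bound, because null cells were below the floor.

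All of the larger differences among core genes came from dim probe sets. The 9 core genes whose own probe set had a mean signal under 10000 spanned -1.13 to 0.82 in the 8 that were measured. Each of them also had a brighter probe set that the annotation assigns to the gene together with other symbols, mostly pseudogenes. The brightest of these for each gene spanned -0.24 to 0.12. A shared probe set can also read transcripts of the other symbols.

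Rpl12, which sits at the base of the stalk, gave 784 in wild-type cells against 359 without Bmi1, 2.18-fold lower (-1.13). Its brightest shared probe set read 20876 and 17692 (-0.24), so both were lower in null cells and only the dim one passed 2-fold. Rpl39, a small protein that lines the exit tunnel for the growing peptide, read 322 and 567, 1.76-fold higher (0.82), while its shared probe set read 17683 and 16746 (-0.079). For Rps27, a zinc-finger protein of the small subunit, the probe set of its own read 623 and 903 (0.54). The Rps27 probe set shared with the retrogene Rps27rt read 11037 and 10676 (-0.048). For Rpl39 and Rps27 the 2 probe sets thus lay on opposite sides of 0.

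Rps25, which is needed for initiation at some viral internal entry sites, gave 1340 and 1730 on its own probe set (0.37) and 11448 and 11322 on the shared one (-0.016). Rpl14 read 984 and 1252 (0.35), and its 5 shared probe sets lay between 0.088 and 0.14, so all 6 were higher in null cells. Rpl27a read 1529 and 1621 (0.085) against -0.13 on its shared probe set, and Rpl37 read 6186 and 6022 (-0.039) against -0.12 on the brightest of its shared ones. Rps6, the substrate of the S6 kinases downstream of mTOR, read 2737 and 2333 (-0.23), and its brightest shared probe set read 18653 and 17309 (-0.11). All 9 shared probe sets of Rps6 lay between -0.29 and 0.32, on both sides of 0. A second probe set of Rps6 alone gave 187 in wild-type cells, whereas the null line did not reach the floor, a difference of at least 1.87-fold. Rps16 was measured on shared probe sets, the brightest of which read 18615 and 16876 (-0.14).

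A further 27 core ribosomal protein genes were read by shared probe sets only and fall outside the 50. For the 25 of them that could be given a value of their own, the median log2 ratio was -0.058 and the range was -0.17 to 0.086. Of the 25, 22 lay below 0, against 49.4% of all measured genes, and these were not recounted under the other scalings. None was at least 2-fold higher (5.73% of all measured genes) or lower (5.16%).

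The sign of the small differences was not the same at every brightness of the probe set, and it followed no steady order. Over the 131 measured core probe sets with a mean signal of at least 10000, unique and shared together, 99 (75.6%) lay below 0. Their median log2 ratio was -0.055 (SD 0.082). After quantile normalisation 89 of the 131 (67.9%) lay below 0, where 48.8% of all measured genes did. After median centring 72 of them (55.0%) lay below 0, where 45.5% of all measured genes did. Over the 14 with a mean signal of 5000 to 10000, 8 lay below 0 (57.1%). Over the 17 with a mean signal of 1000 to 5000, 4 lay below 0 (23.5%) and the median was 0.23 (SD 0.27), and 4 also did under both other scalings. The highest of these was a shared probe set of Rpl15, chosen here after its value was seen, at 0.65. Of the probe sets of other genes, 48.4% lay below 0 at 10000 or more and 51.8% at 1000 to 5000. Below 1000, 11 of 22 core probe sets lay below 0 (50.0%). These scattered most, with an SD of 0.46, and 4 were past 1.5-fold (18.2%, against 26.6% for other genes). Probe sets of 1 gene share their RNA and can overlap in sequence, so these counts are not counts of independent measurements.

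**Figure D3:**
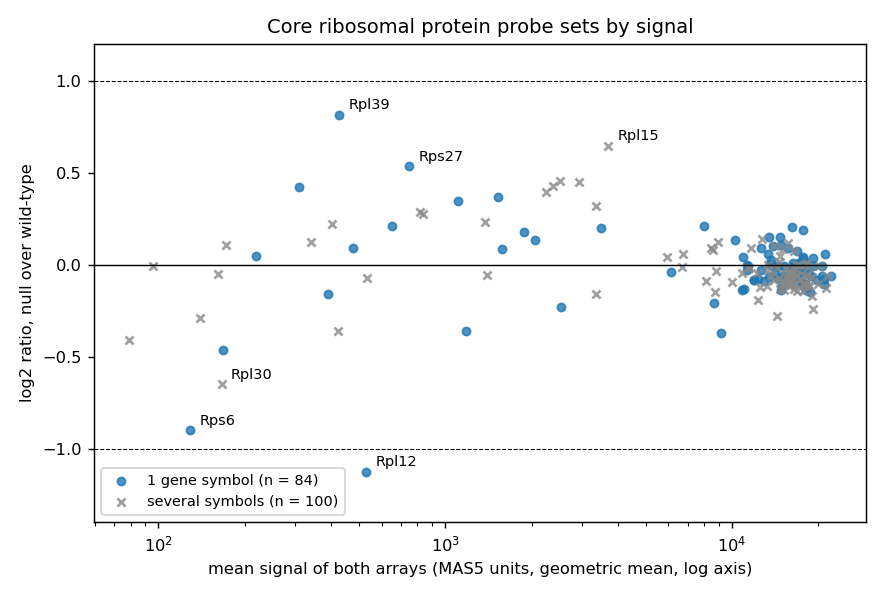
Log2 ratio of null over wild-type (y axis) against the mean signal of both arrays (x axis, MAS5 units, log scale) for 184 measured probe sets of core genes, with 1 gene symbol (dots) or several (crosses) and dashed lines at 2-fold. The 131 probe sets at 10000 or more lie in a narrow band with a median of -0.055, and the scatter widens toward low signals.

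Where a core gene had several measured probe sets of its own they were close: in 16 of 19 such genes the log2 ratios spanned less than 0.5. The widest span was at least 0.67 (Rps6), a bound because its dimmer probe set was under the floor in null cells. The SD of 1 probe set was taken from the 2 brightest probe sets of a gene that were above the floor on both arrays. It was 0.10 for core genes (18 pairs, Rps6 left out) and 0.29 for all genes (4591 pairs). These 2 values are not matched for brightness. Over all genes it was 0.21 where the brighter probe set had a mean signal of at least 10000 (137 pairs). Where that signal was under 1000 it was 0.35 (1826 pairs). This spread covers probe set error within the 2 arrays and no difference between cultures.

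Among the paralogues, Rpl39l was the exception to the small differences. Of the 6 paralogues, 4 were measured, none was at least 2-fold higher in null cells (5.73% of all measured genes) and 1 was at least 2-fold lower (5.16%). Rpl39l, known from male germ cells, gave 2091 in wild-type cells against 1.10 without Bmi1. Since the latter is under the floor, Rpl39l was at least 20.9-fold lower (log2 ratio at most -4.39). Its single probe set left no second reading. The parent Rpl39 gave 0.82 and -0.079 on its 2 probe sets, so neither was 2-fold lower. Of 18 germ cell markers, 15 were below the floor on both arrays, Dazl and Ddx4 among them, and the measured ones were Stra8 (70.3 and 106), Prm1 (57.8 and 157) and Zbtb16 (110 and 74.5). Summed over the 18 markers, most of them below the floor, the signal was 527 in wild-type cells and 696 without Bmi1. The part of other cell types in the Rpl39l signal was not tested.

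**Figure D4:**
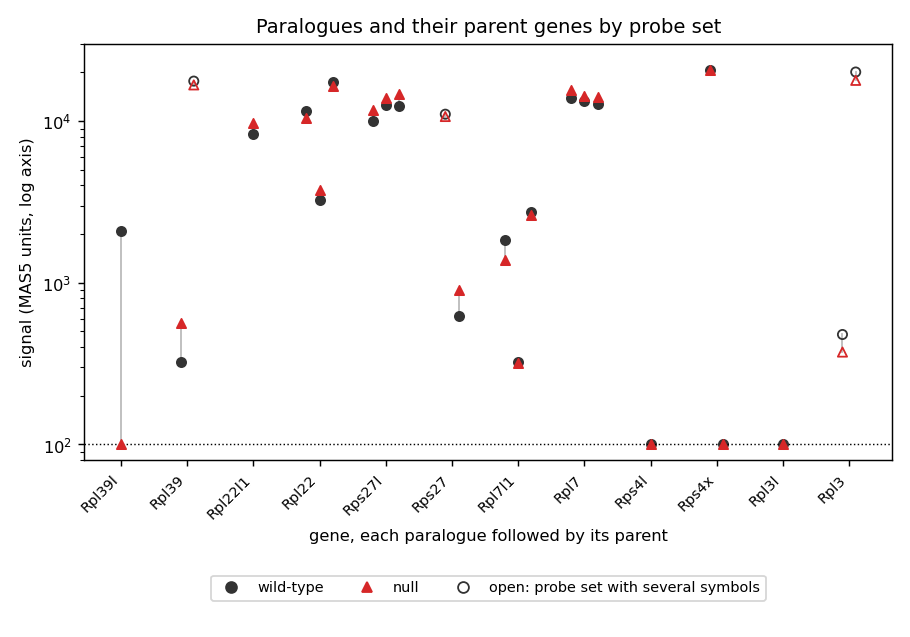
Signal (MAS5 units, log axis) of each probe set of 6 paralogues and their parent genes in wild-type (circles) and null cells (triangles), with open symbols for probe sets annotated to several genes and signals under the floor of 100 (dotted line) drawn at 100. Rpl39l falls from 2091 to the floor, while the other measured paralogues keep their symbols close together.

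Rps27l, whose gene is a p53 target, gave 12443 in wild-type cells against 14678 without Bmi1 (0.24), and its 3 probe sets lay between 0.13 and 0.24. Rpl22l1, whose expression the parent protein is known to repress, read 8266 and 9718 (0.23). The parent Rpl22 read 17511 and 16461 (-0.089), with -0.13 and 0.20 on its other probe sets. Both paralogues were higher in null cells by less than 1.5-fold. Rpl7l1, a factor of large-subunit assembly, read 2730 and 2637 (-0.050), and its other probe sets gave -0.42 and -0.015. Rpl3l read 6.51 and 7.67 and Rps4l read 13.4 and 74.9, so neither was measured and neither is given a fold. Rpl3, the parent of Rpl3l, was read by shared probe sets, the brighter at 20126 and 17869 (-0.17). Of 12 muscle markers 9 were below the floor on both arrays, and Tnnt2 (1531 and 894), Acta1 (514 and 237) and Ckm (204 and 124) were measured.

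Rps19bp1, the binding protein of S19 that the symbol rule took in, read 1978 and 1082. It was 1.83-fold lower in null cells (-0.87) on its single probe set, while Rps19 itself was 1.06-fold lower.

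Rps7 and Rps29, which are on the study's list of promoters with Bmi1-dependent ubiquitylated H2A, are among the 50 genes, and their log2 ratios were 0.015 (17886 and 18073) and -0.059. The brightest shared probe sets of Rps21 (17199 and 17156) and Rpl36 (16856 and 16819), also on that list, differed by under 1.01-fold. The 5 shared probe sets of Rps21 disagreed, with log2 ratios from -0.14 to 0.45, 3 below 0 and 2 above. The highest came from the dimmest of them (2156 and 2950). For Rpl36 the 3 shared probe sets lay between -0.036 and 0.058.

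Genes that work with the ribosomal proteins were described by lists of known members. Fau, whose product is cut into a ubiquitin-like part and ribosomal protein S30, read 12644 and 12044 (-0.070). Of 20 listed elongation, initiation and other TOP mRNA genes, 19 were measured, none was at least 1.5-fold higher (12.5% of all measured genes) or lower (12.0%), and the median log2 ratio was -0.046 (SD 0.15, range -0.35 to 0.32). All 76 mitochondrial ribosomal protein genes, which serve the separate ribosome of mitochondria, were measured. Of these none was at least 2-fold higher (5.73% of all measured genes) and 1 was lower (5.16%), Mrpl37 (825 and 401, 2.06-fold). Their median was 0.045 with an SD of 0.31, and 47 lay above 0 and 29 below (38.2%, against 49.4% of all measured genes).

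The ribosome biogenesis list lay lower than the ribosomal proteins. Its 49 measured genes had a median log2 ratio of -0.23, and 39 (79.6%) lay below 0, against 49.4% of all measured genes. The count was 39 after quantile normalisation (48.8% of all measured genes) and 37 (75.5%) after median centring (45.5%). None of the 49 genes was at least 2-fold higher (5.73% of all measured genes) or lower (5.16%), and none was at least 1.5-fold higher (12.5%). At least 1.5-fold lower were 5 of the 49, no larger a share than the 12.0% of all measured genes. Those 5, named after their values were seen, were Utp14a of the small-subunit processome (1059 and 653), Tcof1, the Treacher Collins protein that acts in ribosomal RNA transcription (718 and 445), Eif6, which keeps the subunits apart (5807 and 3693), Grwd1 (1301 and 841), and Nmd3, the export adaptor of the large subunit (2080 and 1367).

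**Figure D5:**
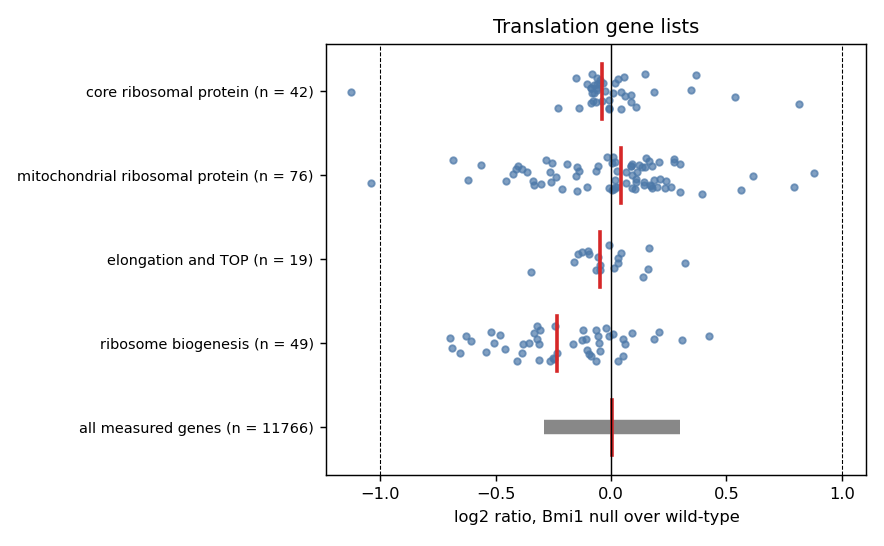
Log2 ratio of null over wild-type (x axis) for each measured gene of 4 translation lists (dots, spread vertically for clarity), with red bars at the medians, a grey bar from the lower to the upper quartile of all measured genes, and dashed lines at 2-fold. The ribosome biogenesis median (-0.23) lies left of 0, and the other medians lie between -0.046 and 0.045.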

How the data were processed

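Total RNA of 1 Bmi1 wild-type and 1 Bmi1 null MEF line was labelled from an oligo(dT) primer and hybridised to Affymetrix Mouse Genome 430 2.0 arrays. The deposited values are MAS5 signal intensities on a linear scale that the authors computed with Microarray Suite 5.0. The scaling settings are not given in the sources used here, and both arrays had a trimmed mean (2% off each tail) of 500. Probe sets took symbols from the platform annotation, and 34958 of 45101 had exactly 1. Intensities below 0.2 times the trimmed mean were set to that floor (100) before log2. A gene below it on both arrays was not measured, and on 1 array its fold is a bound. The number of arrays limits the precision. Calculations used Python 3.11.15, pandas 2.3.3 and numpy 2.4.6, and were checked on simulated data. The genes, lists and naming rule were chosen with earlier results of these data known. Named were paralogues and their parents, core genes past 1.5-fold, the 4 highest, lowest, brightest and dimmest, and genes of known role. Alternatives were other floors, a pseudocount of 16, the mean of probe sets, omission of suffixed probe sets, quantile normalisation and median centring. Promoters were taken from RefSeq (GRCm38.p6) at the first listed start.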

Additional observations from a re-analysis of the deposited data

How the results depend on the processing

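With no floor, 1 of 43 core genes was at least 2-fold higher in null cells (Rps16) in place of 0, against 12.9% of all genes. The paralogues past 2-fold were then 2 in place of 1 (Rps4l added, also 2 with a pseudocount of 16). Without suffixed probe sets 18 core genes were left, with a median log2 ratio of 0.067 in place of -0.038 and a large minus small subunit difference of -0.131 in place of 0.017. An alternative added after seeing the data counted probe sets shared with pseudogene symbols for the ribosomal protein gene. With it, 0 of 67 core genes were at least 2-fold lower in place of 1, against 5.14% of all measured genes. Rpl12 was then at -0.24, Rpl39 at -0.079 and Rps25 at -0.016. The bound for Rpl39l moved to -3.39 and -5.39 with floors of 0.4 and 0.1 times the trimmed mean, and without a floor its ratio was -10.89. Of 18194 genes counted with no floor, 2347 were past 2-fold up (12.9%) and 1580 down (8.68%). With the pseudocount 1366 (7.51%) and 956 (5.25%) of 18194 were. The main setting gave 674 (5.73%) and 607 (5.16%) of 11766. Among the genes of the naming rule, signs changed for Rpl39 and Rps25 as given. Rps20 (-0.076) moved to 0.43 without suffixed probe sets and to 0.12 as the mean of its probe sets. As the mean of theirs, Rps6 moved from -0.23 to -0.565 and Bmi1 from -2.21 to -1.186. With quantile normalisation Rps4x lay above 0 (0.053). With median centring Rpl11, Rps4x and Rpsa moved from just below to just above 0 (0.033, 0.036 and 0.006). Of all 42 measured core genes, 20 lay below 0 with that centring in place of 26, so core genes outside the naming rule changed sign too. The subunit difference also fell below 0 with the mean of probe sets and quantile normalisation (-0.017 each) and with shared probe sets (-0.007). The cause of these shifts was not tested. No paired analysis was possible because there was 1 array per group.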
